A study of Mus musculus with 6 samples.

Results

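Serine synthesis and the one-carbon pathway that it feeds were measured at the level of mRNA in RAW264.7 cells, a line of mouse macrophage-like cells that came from a tumour raised with Abelson virus. The 9 genes described are Phgdh, Psat1, Psph, Shmt1, Shmt2, Mthfd1, Mthfd1l, Mthfd2 and Aldh1l2. They were picked by name as enzymes of the pathway, with earlier results of these data known. Each has 1 entry among the 24379 genes of the deposited count table, and all 9 passed the filter on low counts. The HFCS group (3 libraries) is RAW264.7 cells treated with high-fructose corn syrup, a syrup in which both sugars are free rather than joined as sucrose, and the WT group (3 libraries) is RAW264.7 cells of the same line, with the same label of 18 h. The dose reads 140 mM in the sample titles and 170 mM in the source names, and the growth note names HFCS at 140 mM for every sample, the WT ones included, against their own labels. The sources used here do not give what else the WT cells received or whether any osmotic control was made. Both groups are 1 established line. The labels do not call the replicates separate cultures, so the spread behind each p-value may be only technical.

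Serine is made from a glycolytic intermediate in a chain of reactions catalysed by PHGDH, PSAT1 and PSPH. The SHMT enzymes split serine into glycine and a one-carbon unit carried on folate, SHMT1 in the cytosol and SHMT2 in mitochondria. MTHFD2 and MTHFD1L carry the mitochondrial unit on to formate, ALDH1L2 can instead burn it to carbon dioxide with gain of NADPH, and MTHFD1 joins the formate to folate again in the cytosol, where it serves purine, thymidylate and methionine synthesis. In activated macrophages the pathway is known as a source of glycine for glutathione and of methyl groups.

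Total counts were 13108485 to 15340255 per library. Macrophage markers were present in every library, with 9 of them summing to 2521 to 2630 CPM (a gene's counts relative to a library size scaled for composition) in the HFCS-labelled and 1957 to 2031 CPM in the WT-labelled libraries. They went both ways, with 7 called higher and 2, Cd68 and Csf1r, called lower in the HFCS-labelled libraries by the test given below. All 9 passed, against 44.9% of all tested genes. Mrc1, also listed, had no entry. Of the listed markers of T cells, B cells, neutrophils, fibroblasts, epithelium and endothelium, 14 had an entry in the count table. These summed to 3.42 to 4.58 CPM in the HFCS-labelled and 4.94 to 7.41 CPM in the WT-labelled libraries. Epithelium was covered by Krt8 alone, 1 of 4 listed. The libraries are called by their labels throughout, because the aldose reductase gene Akr1b3, known to go up in cells kept in hypertonic medium, had 208 ± 12.01 CPM in the HFCS-labelled and 7435 ± 381 CPM in the WT-labelled libraries (mean ± SD, n = 3 each). Were the labels of the groups exchanged, every direction given here would turn, and whether they were was not tested. WT replicate 1 lay apart from the other WT libraries on the second principal component, at 29.3 against -14.2 and -13.4, as did HFCS replicate 3 from the other HFCS libraries, at -18.9 against 8.89 and 8.23. Values without a library are therefore given for many, though not all, of the calls and counts that moved. In bulk RNA, fewer cells of a kind and less RNA per cell cannot be told apart.

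The stretches of 250 bases before the RefSeq start (build GRCm38.p6, the same assembly as mm10) are shown for 4 genes: Mthfd2, which was higher in the HFCS-labelled libraries, Mthfd1l, which had the lowest log2 fold change, and Phgdh and Psat1, which open the serine pathway. They were chosen after the values were seen, since no gene reached the 1.5-fold change that the rule for printing asked for. Capitals mark CCAAT, the letters bound by the factor NF-Y, on either strand.
Mthfd2 (chr6:83317605-83317854, minus strand): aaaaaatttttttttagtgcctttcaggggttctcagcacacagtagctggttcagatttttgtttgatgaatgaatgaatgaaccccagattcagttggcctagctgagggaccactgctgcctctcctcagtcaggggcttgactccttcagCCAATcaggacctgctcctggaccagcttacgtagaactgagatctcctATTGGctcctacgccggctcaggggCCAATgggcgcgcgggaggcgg
Mthfd1l (chr10:3972825-3973074, plus strand): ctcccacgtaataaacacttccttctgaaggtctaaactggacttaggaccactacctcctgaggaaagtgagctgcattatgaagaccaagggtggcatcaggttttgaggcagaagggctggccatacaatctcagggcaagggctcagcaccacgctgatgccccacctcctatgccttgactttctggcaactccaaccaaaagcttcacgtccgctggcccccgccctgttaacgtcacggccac
Phgdh (chr3:98339970-98340219, minus strand): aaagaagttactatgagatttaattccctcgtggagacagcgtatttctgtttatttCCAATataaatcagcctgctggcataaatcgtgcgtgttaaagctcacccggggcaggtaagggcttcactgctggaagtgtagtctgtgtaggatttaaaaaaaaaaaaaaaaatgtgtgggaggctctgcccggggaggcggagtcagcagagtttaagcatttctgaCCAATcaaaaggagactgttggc
Psat1 (chr19:15925060-15925309, minus strand, the upstream of 2 listed starts): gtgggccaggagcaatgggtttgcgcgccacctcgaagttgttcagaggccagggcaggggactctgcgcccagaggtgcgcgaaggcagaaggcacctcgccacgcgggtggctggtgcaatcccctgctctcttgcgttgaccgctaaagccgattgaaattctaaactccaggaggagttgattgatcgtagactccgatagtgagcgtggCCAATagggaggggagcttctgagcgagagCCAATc

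RefSeq windows were found for 8 of the 9 genes. None of the windows held TGATGNAA (which includes TGATGCAA, the form most often given for the joint ATF4 and C/EBP element), CACGTG (the E-box bound by MYC) or TGACGTCA (the cAMP response element), read on both strands. Of 32851 windows of the same length over all genes, 3.45% held TGATGNAA, 0.791% TGATGCAA, 6.02% CACGTG and 1.55% TGACGTCA. CCAAT was added to the search after the sequences were read. It occurs 3 times before Mthfd2, which 2.79% of all windows match or exceed, and at least once before Phgdh, Psat1, Psph, Shmt1 and Mthfd1, as in 33.8% of all windows. For Psat1 this holds for the window shown, while that of its other listed start has no CCAAT. It does not occur before Shmt2 or Mthfd1l. The windows of Phgdh, Psat1, Psph, Shmt1 and Mthfd2 lie wholly or partly inside the gene interval of the deposited table. Such matches describe the letters only.

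Of the 9 genes, Mthfd2 and Aldh1l2 were higher in the HFCS-labelled libraries, 6 were lower and Shmt2 did not pass. The test was edgeR's quasi-likelihood F test on the whole table, with p-values adjusted by Benjamini-Hochberg over 14360 genes and a threshold of 0.05, and each adjusted p of a single gene comes from it. Over all tested genes 44.9% passed, 22.4% as higher and 22.5% as lower. With library totals in place of the scaling for composition, 60.2% of all calls were higher in place of 49.99%, and the calls of the 9 genes were the same. The median log2 fold change was -0.34 over the 9 genes and -0.0045 over all tested genes. None of the 9 reached 2-fold, which 10.6% of all tested genes did with a passed test. The groups did not overlap for any of the 9, as for 54.5% of all tested genes.

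The 3 enzymes that make serine were each lower in the HFCS-labelled libraries. Phgdh (ENSMUSG00000053398, mm10 chromosome 3, 98313170 to 98339990, minus strand), whose product draws carbon from glycolysis and is the first step, had 254, 277 and 287 CPM in the HFCS-labelled libraries, against 370, 334 and 320 CPM in the WT-labelled ones. All 3 HFCS-labelled values were below the lowest WT-labelled value, and the log2 fold change was -0.33 ± 0.08 (fitted value ± SE, adjusted p = 0.00548, edgeR). The genome carries 22 annotated copies of Phgdh with at least 90% identity over 200 bases or more, and the 11 of them in the table summed to 2376 counts in the HFCS-labelled and 2690 counts in the WT-labelled libraries. That is 19.5% of the count of Phgdh itself in the HFCS-labelled and 18.7% in the WT-labelled libraries, and the closest copy, Gm7901, shares 98.7% of 1597 bases. How many reads passed between Phgdh and its copies cannot be told from a count table, so its level is uncertain, by an amount that these counts do not bound.

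Psat1 (ENSMUSG00000024640, chromosome 19, 15904678 to 15947337, minus strand), the aminotransferase of the second step, had 331, 321 and 349 CPM in the HFCS-labelled libraries and 429, 468 and 468 CPM in the WT-labelled ones. The groups lay well apart, with a log2 fold change of -0.45 ± 0.07 and an adjusted p of 0.000362 (edgeR), the steepest fall of the 3 by its point value, though the 95% intervals of the 3 overlap. Psph (ENSMUSG00000029446, chromosome 5, 129765558 to 129787449, minus strand), the phosphatase of the last step, had 37.5, 37.4 and 36.0 CPM in the HFCS-labelled libraries and 49.1, 44.2 and 49.1 CPM in the WT-labelled ones. Its log2 fold change was -0.36 ± 0.08 with an adjusted p of 0.00501 (edgeR). The exons of Psph share 452 bases (10.4% of their length) with Cct6a, a chaperonin gene on the other strand that rose by 0.25 on the log2 scale. Summed over the pathway, the 3 genes had 643 ± 25.6 CPM in the HFCS-labelled and 844 ± 6.04 CPM in the WT-labelled libraries (mean ± SD, n = 3 each).

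**Figure D1:**
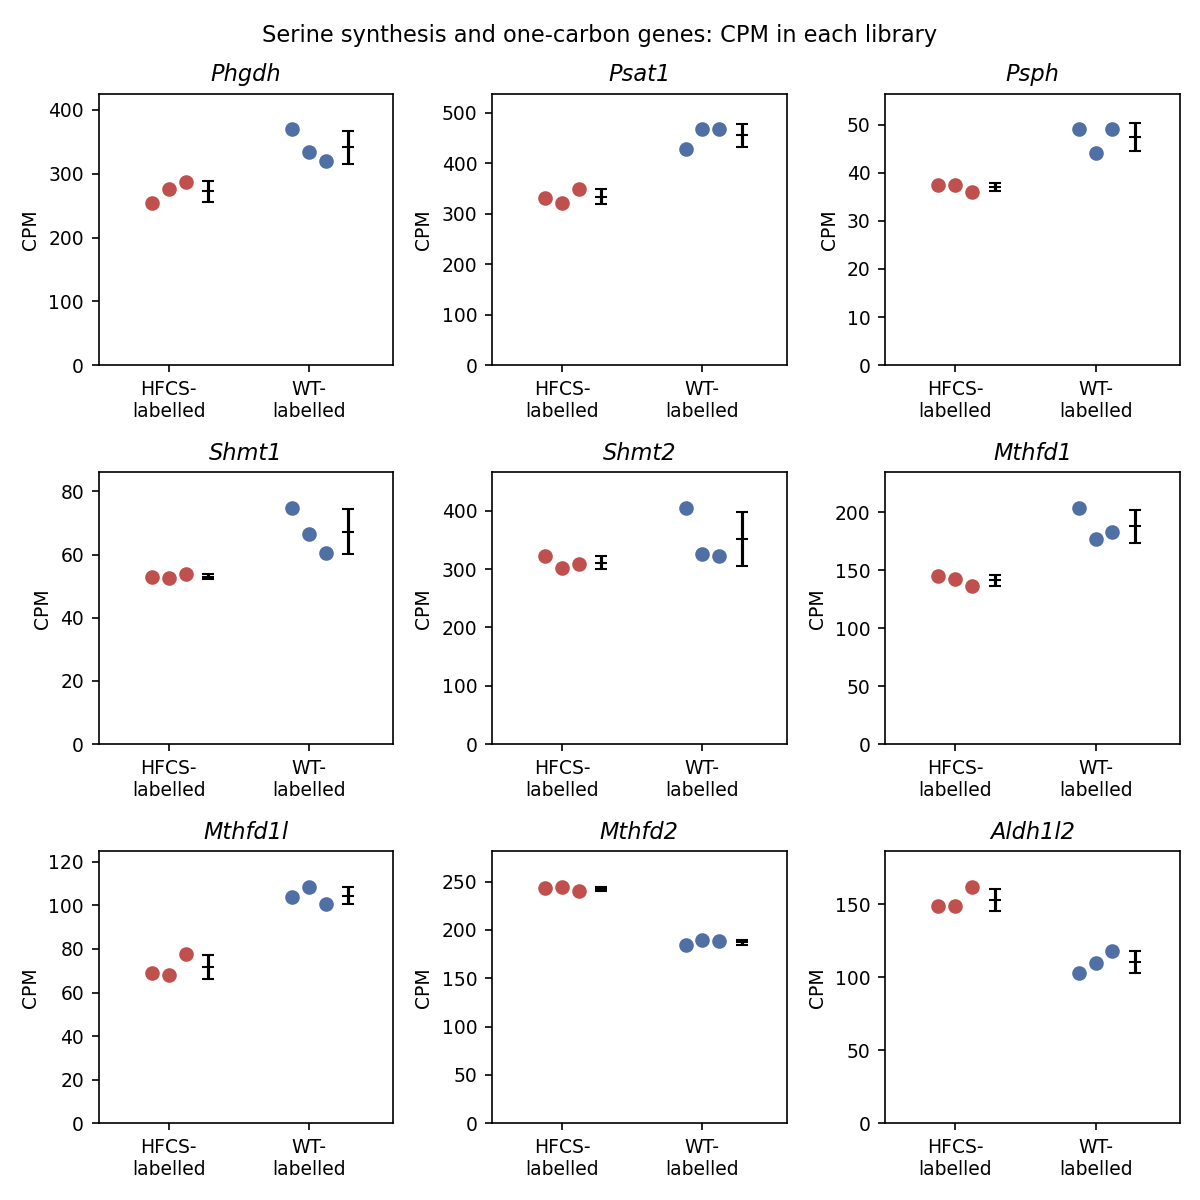
CPM of the 9 genes (vertical axes from 0) in each HFCS-labelled and WT-labelled library (points, replicates 1 to 3 from left to right), with the group mean and SD beside them (n = 3 each). The HFCS-labelled points lie above the WT-labelled ones for Mthfd2 and Aldh1l2 and below them for the other genes, with Shmt2 nearly touching at 323 CPM.

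Of the pair of serine hydroxymethyltransferase genes, Shmt1 fell and Shmt2 did not pass. Shmt1 (ENSMUSG00000020534, chromosome 11, 60788104 to 60811718, minus strand), the cytosolic form, had 52.8, 52.5 and 53.8 CPM in the HFCS-labelled libraries and 74.8, 66.4 and 60.5 CPM in the WT-labelled ones. The HFCS-labelled values were tightly grouped and below all WT-labelled ones, with a log2 fold change of -0.34 ± 0.09 and an adjusted p of 0.00894 (edgeR). Its exons share 184 bases (4.74% of their length) with Smcr8 on the other strand, which rose by 0.35. Shmt2 (ENSMUSG00000025403, chromosome 10, 127517123 to 127522444, minus strand), the mitochondrial form and the main source of one-carbon units in most dividing cells, had 323, 302 and 308 CPM in the HFCS-labelled libraries and 405, 326 and 323 CPM in the WT-labelled ones. The WT-labelled values apart from replicate 1 nearly meet the highest HFCS-labelled one, and the log2 fold change of -0.17 ± 0.09 did not pass (adjusted p = 0.137, edgeR), with a 95% interval of -0.37 to 0.02. Without WT replicate 1 the log2 fold change of Shmt2 was -0.06 (adjusted p = 0.411, edgeR).

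Genes of the folate-bound one-carbon steps moved in opposite directions. Mthfd1 (ENSMUSG00000021048, chromosome 12, 76255298 to 76319803, plus strand), the trifunctional cytosolic enzyme, had 145, 143 and 136 CPM in the HFCS-labelled libraries and 204, 177 and 183 CPM in the WT-labelled ones. All HFCS-labelled values lay below the WT-labelled ones, with a log2 fold change of -0.41 ± 0.07 and an adjusted p of 0.000997 (edgeR). Mthfd1l (ENSMUSG00000040675, chromosome 10, 3973118 to 4167081, plus strand), the mitochondrial enzyme that releases formate, had 69.2, 68.2 and 77.9 CPM in the HFCS-labelled libraries and 104, 108 and 101 CPM in the WT-labelled ones. It had the lowest log2 fold change of the 9 genes, -0.54 ± 0.08 with an adjusted p of 0.000239 (edgeR), which makes it 1.45-fold lower in the HFCS-labelled libraries.

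Mthfd2 and Aldh1l2, both mitochondrial, were the 2 genes that rose. Mthfd2 (ENSMUSG00000005667, chromosome 6, 83305691 to 83325908, minus strand), a dehydrogenase that is low in most adult tissues and high in dividing and activated cells, had 243, 244 and 240 CPM in the HFCS-labelled libraries and 184, 189 and 188 CPM in the WT-labelled ones. Both groups were tight and far apart for their spread, with a log2 fold change of 0.38 ± 0.06 (1.30-fold) and an adjusted p of 0.000479 (edgeR). Aldh1l2 (ENSMUSG00000020256, chromosome 10, 83487450 to 83534140, minus strand), the mitochondrial formyltetrahydrofolate dehydrogenase, had 148, 149 and 162 CPM in the HFCS-labelled libraries and 103, 110 and 118 CPM in the WT-labelled ones. Its lowest HFCS-labelled value was above the highest WT-labelled one, with a log2 fold change of 0.47 ± 0.07 (1.39-fold) and an adjusted p of 0.000482 (edgeR). The exons of Aldh1l2 share 1056 bases (14.1% of their length) with D10Wsu102e on the other strand, which fell by 0.46 on the log2 scale, with 229.5 ± 10.02 CPM in the HFCS-labelled and 316 ± 21.8 CPM in the WT-labelled libraries. The sources used here do not give the strand setting of the counting, so reads in the bases shared with D10Wsu102e, Cct6a and Smcr8 cannot be told apart, and in each of these 3 pairs the partner changed in the other direction.

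**Figure D2:**
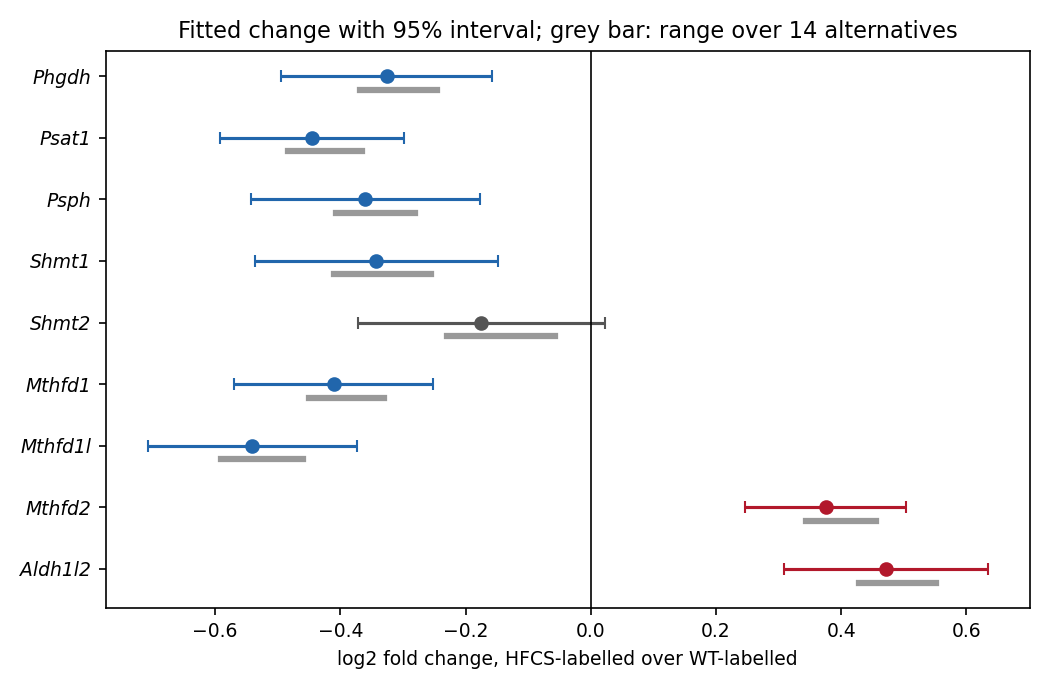
Fitted log2 fold change (horizontal axis, HFCS-labelled over WT-labelled) with its 95% interval for each of the 9 genes, in red where higher, blue where lower and grey where not past the threshold. The grey bars give the range over 14 alternative settings; the bars of Mthfd2 and Aldh1l2 stay above 0 and those of the other 7 genes below 0.

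Mitochondrial and cytosolic forms were compared within each library as a ratio of counts, which no scaling of the library can move. The log2 ratio of Mthfd2 over Mthfd1 was 0.74, 0.78 and 0.82 in the HFCS-labelled libraries and -0.15, 0.10 and 0.04 in the WT-labelled ones. The groups were far apart, with a ratio 1.72 times as high in the HFCS-labelled libraries (exact permutation test, two-sided, p = 0.1, adjusted p = 0.15 over 3 ratios). With 3 libraries against 3 this test cannot give a p below 0.1. The log2 ratio of Shmt2 over Shmt1 was 2.61, 2.53 and 2.52 in the HFCS-labelled libraries and 2.44, 2.29 and 2.42 in the WT-labelled ones, 1.13-fold higher with no overlap (exact permutation p = 0.1, adjusted p = 0.15). The log2 ratio of Mthfd1l over Mthfd1 was -1.07, -1.06 and -0.81 in the HFCS-labelled libraries and -0.97, -0.71 and -0.86 in the WT-labelled ones, where the groups overlapped (exact permutation p = 0.3, adjusted p = 0.3). The 4 mitochondrial genes, Shmt2, Mthfd2, Mthfd1l and Aldh1l2, summed to 778 ± 13.2 CPM in the HFCS-labelled and 753 ± 37.1 CPM in the WT-labelled libraries, while the cytosolic Shmt1 and Mthfd1 summed to 194 ± 4.19 CPM in the HFCS-labelled and 255 ± 20.3 CPM in the WT-labelled libraries (mean ± SD, n = 3 each).

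**Figure D3:**
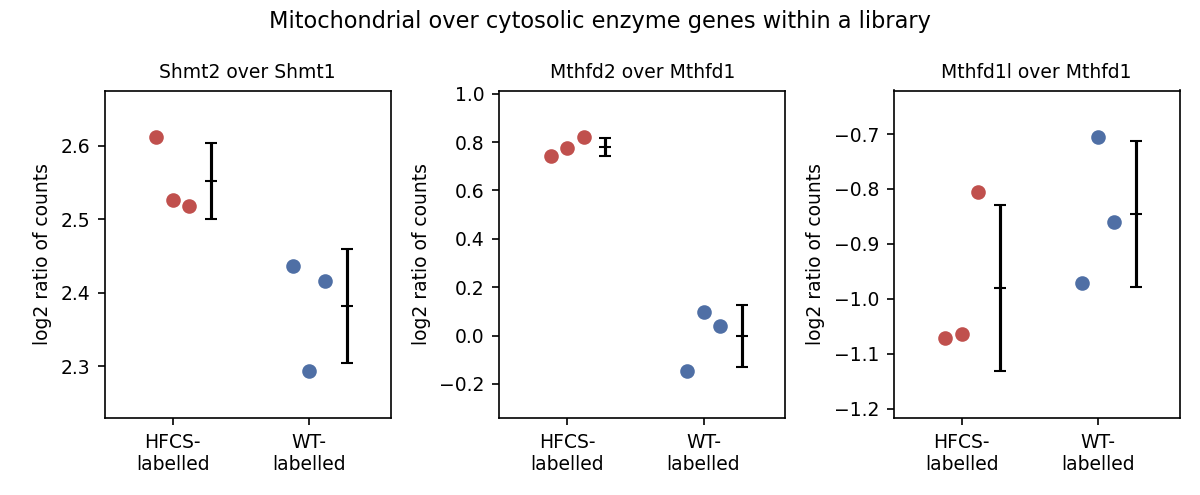
Log2 ratio of counts (vertical axes, each with its own range) of a mitochondrial over a cytosolic enzyme gene in each library (points), with the group mean and SD (n = 3 each). Mthfd2 over Mthfd1 sits between 0.74 and 0.82 in the HFCS-labelled libraries and between -0.15 and 0.10 in the WT-labelled ones.

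Per length of exon the order of the levels was much the same in both groups, with Aldh1l2 the exception. In RPKM (CPM divided by the length of the gene's merged exons in kilobases), Phgdh was highest at 110 ± 6.73 in the HFCS-labelled and 137 ± 10.4 in the WT-labelled libraries, followed by Shmt2 at 100.1 ± 3.43 in the HFCS-labelled and 113 ± 14.9 in the WT-labelled libraries. These neighbours overlapped in both groups. Psat1 came next at 78.5 ± 3.36 RPKM in the HFCS-labelled and 107 ± 5.28 RPKM in the WT-labelled libraries, where it overlapped Shmt2. Mthfd2 followed at 69.6 ± 0.640 RPKM in the HFCS-labelled and 53.7 ± 0.829 RPKM in the WT-labelled libraries, then Mthfd1 at 31.8 ± 1.08 RPKM in the HFCS-labelled and 42.3 ± 3.18 RPKM in the WT-labelled libraries. Aldh1l2 was the sixth of the 9 in the HFCS-labelled libraries, at 20.4 ± 1.03 RPKM, and the eighth in the WT-labelled libraries, at 14.7 ± 0.998 RPKM, where it overlapped Shmt1. Mthfd1l, at 16.2 ± 1.20 RPKM in the HFCS-labelled and 23.5 ± 0.878 RPKM in the WT-labelled libraries, stood above Shmt1, at 13.7 ± 0.181 RPKM in the HFCS-labelled and 17.3 ± 1.85 RPKM in the WT-labelled libraries. Psph was lowest in both groups, at 8.54 ± 0.193 RPKM in the HFCS-labelled and 10.96 ± 0.653 RPKM in the WT-labelled libraries.

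Among other tested genes of the folate cycle and its transport, 27.3% passed, against 44.9% of all tested genes. Of 11 tested genes for folate enzymes and transport, 1 rose, Slc19a1 and Mtfmt fell and 8 did not pass, and the median log2 fold change was 0.10; 2 were called higher without HFCS replicate 1 and 3 with library totals. Slc19a1, the carrier that brings reduced folate into the cell, had 49.0 ± 1.46 CPM in the HFCS-labelled and 70.6 ± 4.43 CPM in the WT-labelled libraries (-0.53, adjusted p = 0.000320, edgeR). Mtfmt, which uses formyl-folate to formylate the initiator tRNA of mitochondria, was at -0.21 and did not pass in 8 of 14 alternative settings. The Mthfd2 relative Mthfd2l (0.33, adjusted p = 0.195, edgeR) and the mitochondrial folate carrier gene Slc25a32 (-0.06, adjusted p = 0.668, edgeR) did not pass, and Slc25a32 turned to 0.022 with library totals and to 0.0092 without HFCS replicate 1. Mthfd2l had 13.3 ± 1.44 CPM in the HFCS-labelled and 10.6 ± 2.92 CPM in the WT-labelled libraries. Aldh1l1, the cytosolic relative of Aldh1l2, was too low to test, at 0.135 ± 0.0117 CPM in the HFCS-labelled and 0.738 ± 0.430 CPM in the WT-labelled libraries.

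Of 13 purine synthesis genes, 8 fell, Impdh1 rose and 4 did not pass, with a median log2 fold change of -0.40. Thus 69.2% of this list passed, against 44.9% of all tested genes. Paics, which builds part of the purine ring, had 180 ± 4.40 CPM in the HFCS-labelled and 357 ± 16.0 CPM in the WT-labelled libraries, a log2 fold change of -0.99 ± 0.06 with an adjusted p of 1.55e-06 (edgeR). Gart and Atic, which take the formyl units themselves, fell by 0.55 and 0.40 on that scale, and Prps2, which makes the ribose precursor, fell by 0.86. Impdh1, at the branch to guanine nucleotides, rose by 1.03, with 100 ± 6.52 CPM in the HFCS-labelled and 49.0 ± 8.83 CPM in the WT-labelled libraries. Its more abundant relative Impdh2 did not pass, with 213 ± 7.09 CPM in the HFCS-labelled and 220 ± 11.6 CPM in the WT-labelled libraries. Of 6 thymidylate genes, Tyms, the synthase that takes a one-carbon unit from folate, rose to 49.0 ± 2.67 CPM in the HFCS-labelled libraries, against 32.1 ± 1.47 CPM in the WT-labelled ones, Dctd (-0.66) and Dut (-0.22) fell and 3 did not pass. Dut did not pass in 7 of 14 alternative settings. The share of thymidylate genes that passed, 50%, was near the 44.9% of all tested genes.

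Of 15 tested genes of the methionine cycle, transsulfuration and polyamine salvage, 4 rose, 2 fell and 9 did not pass, with a median of -0.0025. The share that passed, 40%, was near the 44.9% of all tested genes. The cystathionine lyase gene Cth (0.47), the methionine synthase gene Mtr (0.24), Apip (0.40) and Odc1 (0.59), the first enzyme of polyamine synthesis, rose. The methionine adenosyltransferase gene Mat2a (-0.28) and Adi1 (-0.74), of methionine salvage, fell. Of 8 genes for glycine cleavage and threonine use, Amt (0.42) and Lias (0.25) rose, and Gldc (-1.90), the decarboxylase that splits glycine, Gcat (-1.39) and Gcsh (-0.51) fell. In that list 62.5% passed, against 44.9% of all tested genes. Gldc was low, at 0.798 ± 0.329 CPM in the HFCS-labelled and 2.96 ± 0.0480 CPM in the WT-labelled libraries. In the glycine list, 0 genes were called higher without HFCS replicate 2, HFCS replicate 3 or WT replicate 2, and 1 without HFCS replicate 1 or WT replicate 3. In the methionine list, 2 were called higher without HFCS replicate 1, and 1 lower without HFCS replicate 2 or WT replicate 3. Apip did not pass in 7 of 14 alternatives (adjusted p up to 0.201), Mtr without HFCS replicate 1 (0.0694), and Mat2a without HFCS replicate 2 (0.0543) or WT replicate 3 (0.0535), each by edgeR for the libraries left out.

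Genes that carry or consume serine went both ways. Of 21 tested, 7 rose, 7 fell and 7 did not pass, with a median of 0.03, and 4 were called lower without HFCS replicate 1 or WT replicate 3. The share that passed was 66.7%, against 44.9% of all tested genes. The neutral amino acid carrier gene Slc38a1 had 445 ± 20.8 CPM in the HFCS-labelled and 275 ± 20.04 CPM in the WT-labelled libraries (0.69, adjusted p = 3.7e-05, edgeR), and Slc38a2 (0.42), Slc1a4 (0.33) and the glycine carrier gene Slc6a9 (0.71) rose as well. Sptlc1 (0.48) and Sptlc2 (0.72), subunits of the enzyme that joins serine to a fatty acid for sphingolipids, rose. Sptssa, a small subunit of that enzyme, fell, with 67.0 ± 2.68 CPM in the HFCS-labelled and 84.6 ± 1.59 CPM in the WT-labelled libraries. Sfxn1, the carrier of serine into mitochondria, had 84.0, 78.0 and 83.6 CPM in the HFCS-labelled and 95.8, 114 and 116 CPM in the WT-labelled libraries (-0.41, adjusted p = 0.00283, edgeR), and Sfxn2 (-0.41), Ptdss2 (-0.59), which makes phosphatidylserine, and Serinc2 (-1.75) fell. Ptdss1, the other phosphatidylserine synthase gene, did not pass. Of the other Serinc genes, Serinc3 fell, Serinc5 did not pass and Serinc1 rose. Serinc1 had 148 ± 12.5 CPM in the HFCS-labelled and 93.9 ± 14.2 CPM in the WT-labelled libraries. Slc38a4 (-1.63) passed as lower too, but not without HFCS replicate 1 (adjusted p = 0.0546), HFCS replicate 3 (0.0523) or WT replicate 3 (0.0606), each by edgeR. Its level was low, at 0.468 ± 0.161 CPM in the HFCS-labelled and 1.48 ± 0.567 CPM in the WT-labelled libraries. Its counts totalled 21 over the HFCS-labelled and 62 over the WT-labelled libraries. Sfxn2 did not pass in 9 of 14 alternatives, with adjusted p up to 0.142.

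ATF4 is the transcription factor that raises many amino acid synthesis genes under stress, and Phgdh, Psat1, Psph, Shmt2, Mthfd2 and Aldh1l2 are among its known targets. Atf4 itself had 463 ± 9.49 CPM in the HFCS-labelled and 245 ± 20.1 CPM in the WT-labelled libraries, a log2 fold change of 0.92 ± 0.07 with an adjusted p of 6.2e-06 (edgeR). Of 25 tested genes of the ATF4 and amino acid response list, 11 rose, Atf4 itself included, 4 fell and 10 did not pass, with a median of 0.21. That is 60% passed, against 44.9% of all tested genes, of which 22.4% were called higher. In the list, 2 were called lower without HFCS replicate 1, HFCS replicate 2 or WT replicate 3 and 1 with library totals. Trib3, a feedback inhibitor of ATF4, had 208 ± 6.91 CPM in the HFCS-labelled and 41.7 ± 8.07 CPM in the WT-labelled libraries (2.32, adjusted p = 3e-07, edgeR), and Chac1 (2.14), Ppp1r15a (1.66), Atf3 (1.25) and Stc2 (1.16) rose by more than 2-fold. Of the amino acid and related synthesis genes of the list, Asns (0.06, adjusted p = 0.447, edgeR), Pycr1 (-0.15, adjusted p = 0.275) and Pck2 (-0.12, adjusted p = 0.247) did not pass, and the transaminase gene Gpt2 (-0.46) and Aldh18a1 (-0.20) fell, Aldh18a1 not in 6 of 14 alternatives (adjusted p up to 0.151). The other genes of the list that fell were Nupr1 and the carrier gene Slc7a5, while Slc7a11, Slc3a2 and Ddit4 did not pass. Of the targets named at the start of this paragraph, Mthfd2 and Aldh1l2 rose, Phgdh, Psat1 and Psph fell and Shmt2 did not pass.

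Of the genes of proliferation, which the one-carbon pathway serves, 10 of the 16 tested fell, 6 did not pass and 0 rose, and their part in these results was not tested. Their median was -0.37, and 62.5% of them passed, against 44.9% of all tested genes. Mitotic genes such as Ccnb1 (-1.04), Aurka (-0.89) and Plk1 (-0.74) fell, as did the marker gene Mki67, with 704 ± 30.4 CPM in the HFCS-labelled and 995 ± 95.8 CPM in the WT-labelled libraries. Of the replication helicase genes Mcm6 (-0.68) and Mcm2 (-0.23) fell, Mcm2 not in 5 of 14 alternatives (adjusted p up to 0.101), while Mcm3, Mcm4, Mcm5 and Mcm7 did not pass, and neither did the ribonucleotide reductase genes Rrm1 (-0.09) and Rrm2 (0.06).

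**Figure D4:**
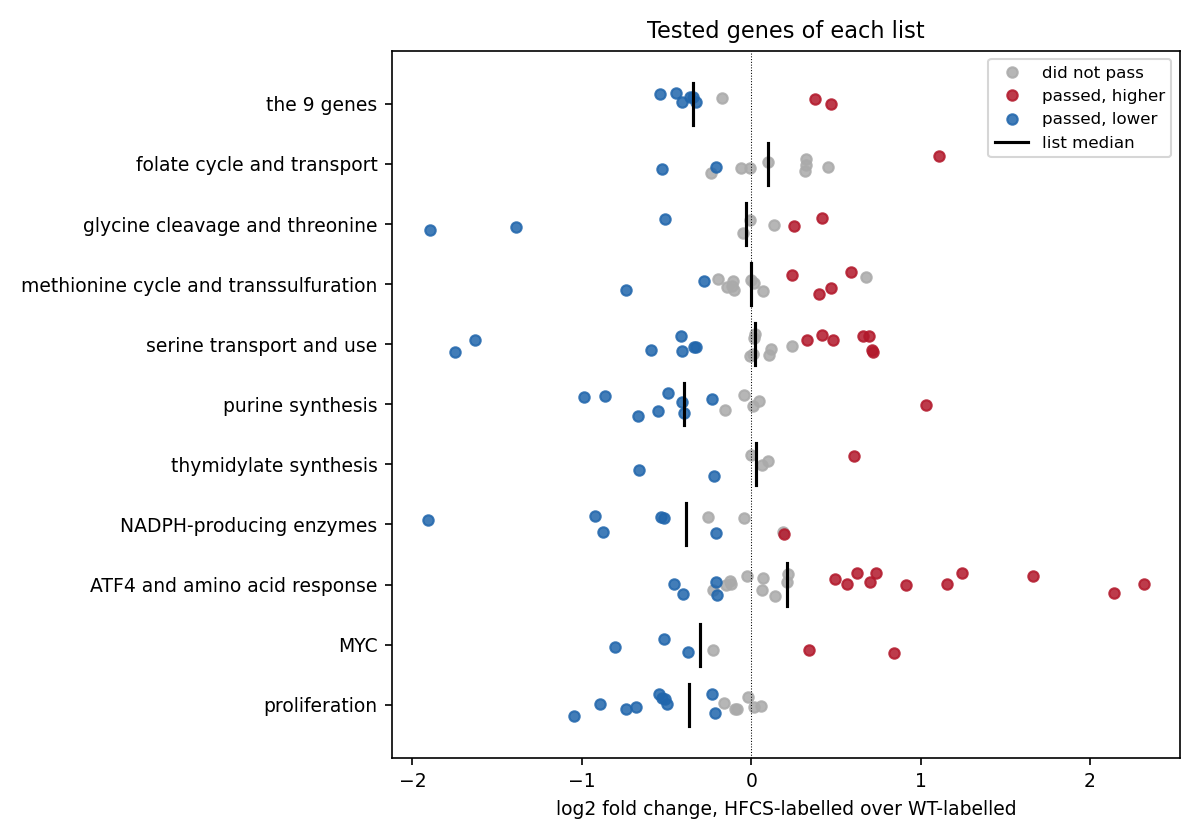
Log2 fold change (horizontal axis, HFCS-labelled over WT-labelled) of every tested gene of the 9-gene set and of each further list (1 row each), coloured by whether it passed an adjusted p of 0.05, with the list median as a black bar. Medians run from -0.40 for purine synthesis to 0.21 for the ATF4 list.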

How the data were processed

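The authors deposited raw counts of reads per gene, not normalised, for 6 libraries of RAW264.7 cells, 3 labelled HFCS and 3 labelled WT by the sample titles. Per the submitters' processing notes, CASAVA, HISAT2 2.0.5 and featureCounts 1.5.0-p3 were used with build mm10. The sources used here give neither their settings, strand included, nor the annotation. Symbols were paired with 24344 of 24379 identifiers, and exon lengths were taken from GENCODE M21.

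Genes were filtered with filterByExpr (minimum count 10), which kept 14360 and removed 10019, scaled by TMM and fitted with edgeR 4.0.16 glmQLFit and glmQLFTest on all kept genes (R 4.3.3). An adjusted p under 0.05 counted as past the threshold. The fit was also run on simulated data as a check of the code, which does not bear on the results given here. Ratios were tested by exact permutation (SciPy 1.17.1), and copies were sought with BLAST 2.17.0. Intervals cover the spread between libraries only.

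The 9 genes and the further lists were chosen with earlier results of these data known. Named from the lists were genes past 2-fold, the 3 with the smallest adjusted p in each, and Atf4, Myc, Tyms and Mthfd2l, with some genes of that rule not reported here; other list genes were named after their values were seen. Alternatives were 3 other scalings, DESeq2 1.42.0, limma-voom (limma 3.58.1), 2 other filters, the replicate number as a block and each library left out. Replicates differed by more than sampling noise, with chi-square over its degrees of freedom between 2.71 and 18.6.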

Additional observations from a re-analysis of the deposited data

How the results depend on the processing

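The calls of the 9 genes, 2 higher and 6 lower with Shmt2 not past, were the same in each of 14 alternatives (3 scalings, DESeq2, limma-voom, 2 filters, the replicate block and 6 libraries left out), and none of the 9 genes or 3 ratios turned its direction. With at least 2-fold asked for, 0 of the 9 were higher and 0 lower. The closest to the threshold were Phgdh and Shmt1, with adjusted p-values of up to 0.0467 and 0.0446 over the alternatives, and Shmt2, whose adjusted p ranged from 0.0572 to 0.414. Of 73 other genes named with a fitted value, 15 lost their call in at least 1 alternative (Aldh18a1, Amt, Apip, Dut, Lias, Mat2a, Mcm2, Mtfmt, Mtr, Mxd1, Mxd4, Nadk, Pgd, Sfxn2 and Slc38a4) and Mcm7 passed with upper-quartile scaling (-0.19). Of genes not past the threshold, 3 turned: Slc25a32 was 0.022 with library totals and -0.13 to 0.0092 with each library left out, Mcm4 was -0.014 with upper-quartile scaling and -0.024 to 0.050 with each library left out, and Mcm5 was 0.061 with library totals, 0.017 with no filter and -0.067 to 0.025 with each library left out. Of 280 counts over the further lists 39 moved by more than 1.5 times; the cause was not tested. With the replicate number as a block 7152 genes were called in place of 6447, and 2 of the 9 were higher and 6 lower. Same-numbered libraries did not deviate together in all pairs (r = 0.17, -0.064 and 0.19), so the numbers were not taken as pairs. Not every library correlated best with its own number. Genes that reached the filter's minimum of 10 counts in too few libraries, Aldh1l1 among them, were not tested.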

Other observations

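Genes of NADPH supply, which ALDH1L2 and the folate dehydrogenases also feed, mostly had lower levels in HFCS-labelled cells. Among 10 tested genes 6 fell, Nadk (0.19) rose and 3 did not pass, and the median log2 fold change was -0.39. The share that passed was 70%, against 44.9% of all tested genes. Nadk did not pass with upper-quartile scaling or without HFCS replicate 1, HFCS replicate 3, WT replicate 2 or WT replicate 3. Me1, the cytosolic malic enzyme, had 22.6 ± 0.554 CPM in the HFCS-labelled and 85.03 ± 11.9 CPM in the WT-labelled libraries, and Nadk2 (-0.92), which phosphorylates NAD in mitochondria, Idh1 (-0.87), Idh2 (-0.53), G6pdx (-0.52) and Pgd (-0.21) fell, Pgd not in 8 of 14 alternatives (adjusted p up to 0.175). Of 6 genes of the MYC network, which drives serine and one-carbon genes in many tumours, Mycn was by far the most abundant by CPM, at 783 ± 61.8 CPM in the HFCS-labelled and 1367 ± 169 CPM in the WT-labelled libraries (-0.80, edgeR adjusted p = 7.6e-05). Max (-0.37) and Mxd4 (-0.51) fell, Mxd1 (0.34) rose, and Myc rose to 8.55 ± 1.17 CPM in the HFCS-labelled libraries, against 4.76 ± 0.0836 CPM in the WT-labelled ones. In the MYC list Mxd1 did not pass without HFCS replicate 2, HFCS replicate 3, WT replicate 2 or WT replicate 3 (adjusted p up to 0.136, edgeR), nor did Mxd4 without HFCS replicate 3 (0.0557).

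Nearest to each gene in its profile of centred log2 CPM over the 6 libraries, by root-mean-square difference, were Sar1a (0.019), Lyz2 (0.020) and Fat1 (0.021) for Mthfd2 and Ctr9, Ercc4 and Ube2d2a (0.028 each) for Aldh1l2. For Mthfd1l they were Heatr5b (0.015), Kif14 (0.024) and Nsmce4a (0.040), and for Psat1 Arl6ip1 (0.0056), Slc25a17 (0.016) and Nuf2 (0.022). The single nearest genes were Rusc2 for Phgdh, Rrp15 for Psph, Atxn7l2 for Shmt1 and Bag1 for Mthfd1.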
